A study of Mus musculus with 15 samples.

Results

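The circadian clock genes are the transcription factors and repressors of the daily gene expression loop that runs in nearly every cell, heart muscle included. A list of 10 such genes was taken (Per1, Per2, Per3, Cry1, Cry2, Arntl, Clock, Nr1d1, Nr1d2 and Dbp), and the 9 whose symbols stand in the deposited table of 16658 genes were described: Per1, Per2, Cry1, Cry2, Arntl, Clock, Nr1d1, Nr1d2 and Dbp. Per3 was not analysed here. All 9 passed the filter on low values, the lowest value of any of them in any library being 2.55 log2 CPM. The rule that lists them names no measured value, but the list was chosen with earlier results of these data known.

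RNA was sequenced from hearts of male C57BL/6 mice aged 8 to 10 weeks, from pieces that included the infarcted part. The study tied the left anterior descending artery for 90 min and let blood return for 24 h. The rivaroxaban group (an inhibitor of factor Xa) had 3 mg/kg and the dabigatran group (an inhibitor of thrombin, factor IIa) 10 mg/kg for 7 days before surgery. The group given activated protein C (aPC, an anticoagulant protease) had 1 mg/kg at 30 min before it, and treatment was restarted 2 h after it. One account of the surgery covers all groups in the labels, and the sham and untreated groups are called here by their label names. In all, 11 libraries were analysed: untreated replicates 17 and 19, sham replicates 003, 006 and 007, and 2 each of aPC (aPC-791 and aPC-792), dabigatran (Dabi-202 and Dabi-204) and rivaroxaban (Riva-313 and Riva-319), the last 6 named as in the labels. The other 4 of the 15 labelled samples were not analysed here. The labels give no time of day of tissue collection, no batch and no pairing. Each library has a number of its own, but no label says outright that each came from a separate animal, so p-values measure the spread between these libraries.

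In the clock loop, the proteins of Arntl (also called BMAL1) and Clock pair up and bind E-box sequences, where they switch on the Per and Cry genes, Nr1d1, Nr1d2 and Dbp. PER and CRY proteins then return to the nucleus and block that pair, while the receptors encoded by Nr1d1 and Nr1d2 (REV-ERB alpha and beta) repress Arntl. The loop makes transcripts such as Arntl and Dbp peak at opposite times of day in heart as in other tissues, and Per1 is also known to be switched on by glucocorticoids and by stress signals.

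RefSeq promoter windows (build GRCm38.p6, the build the files call mm10) were matched for 8 of the 9 genes, Per2 being the one with no window. Both strands of the 250 bases before each annotated start were searched for the E-box CACGTG, the related CACGTT, the D-box letters TTATGTAA and TTACGTAA, the core letters TAGGTCA and TGGGTCA that ROR and REV-ERB proteins bind, the cyclic AMP element TGACGTCA and the palindromic glucocorticoid response element. No 2 of the matches found here overlapped. Only the windows with a match are shown. Each is printed 5′ to 3′ on the gene's own strand, trimmed where the window touched an annotated exon, with the E-box or its relative in capitals. The relative lies on the other strand in all 3 windows that hold it and so reads AACGTG there.
Per1, chr11:69098699-69098947, plus strand: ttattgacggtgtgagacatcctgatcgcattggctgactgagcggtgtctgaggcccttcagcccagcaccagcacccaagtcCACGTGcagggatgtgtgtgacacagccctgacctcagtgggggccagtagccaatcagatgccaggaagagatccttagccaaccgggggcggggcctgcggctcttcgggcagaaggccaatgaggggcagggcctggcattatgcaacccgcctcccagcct
Cry1, chr10:85185065-85185304, minus strand: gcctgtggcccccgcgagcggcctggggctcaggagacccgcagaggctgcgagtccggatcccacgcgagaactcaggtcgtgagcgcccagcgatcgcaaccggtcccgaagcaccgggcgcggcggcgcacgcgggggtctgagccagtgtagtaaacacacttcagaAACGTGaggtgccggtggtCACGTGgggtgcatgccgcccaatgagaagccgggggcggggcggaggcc
Cry2, chr2:92434070-92434319, minus strand: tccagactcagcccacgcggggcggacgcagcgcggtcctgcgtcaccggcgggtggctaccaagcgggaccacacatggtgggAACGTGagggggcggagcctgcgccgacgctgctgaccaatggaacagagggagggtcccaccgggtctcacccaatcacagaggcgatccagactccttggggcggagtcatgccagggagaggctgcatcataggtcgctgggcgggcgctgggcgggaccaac
Nr1d1, chr11:98775378-98775627, minus strand: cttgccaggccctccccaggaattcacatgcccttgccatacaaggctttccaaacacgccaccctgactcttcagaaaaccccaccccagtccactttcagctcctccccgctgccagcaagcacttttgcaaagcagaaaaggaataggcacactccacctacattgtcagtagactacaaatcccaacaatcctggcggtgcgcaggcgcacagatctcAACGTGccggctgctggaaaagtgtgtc

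In Per1 the E-box begins 166 bases before the start of 1 of its annotated transcripts. That start, chr11:69098949, lies inside the gene, which begins at 69095217 in GENCODE, so the printed window is within the gene. Cry1 holds an E-box 60 bases and a CACGTT 79 bases before its start, Cry2 a CACGTT at 166 bases and Nr1d1 a CACGTT at 28 bases. The RefSeq starts of Cry2 and Nr1d1, from which these distances are counted, lie 26 and 44 bases before the first base that GENCODE annotates for the gene. Of 32851 RefSeq promoter windows of this length, 6.02% hold CACGTG and 3.85% hold CACGTT. The windows of Arntl, Clock, Dbp and Nr1d2 held none of the letters searched, though the loop is known to drive Dbp and Nr1d2 too. A second window of Per1, chr11:69099902-69100151, also held none. The D-box, ROR, cyclic AMP and glucocorticoid letters, found in 0.931%, 5.38%, 1.55% and 0.387% of all windows, were in none of the windows of these genes. A match describes the letters and no more.

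Levels are in log2 CPM, each gene's reads scaled by the submitters to the size of its library. The libraries held 26203566 to 36135006 reads on listed genes. Differences were tested with limma in 1 fit over all 5 groups and 13541 genes. A gene was called when its Benjamini-Hochberg adjusted p over those genes was under 0.05. A value after ± is the standard error of a log2 fold change, or the SD of a group where SD is written, with n = 3 in sham and n = 2 elsewhere. The untreated libraries stood furthest apart of all replicate pairs, with an SD of the log2 difference over genes of 0.792 against 0.313 to 0.483 in the other pairs. In a fit without 1 library of any group but sham, that group has n = 1. The p-values of such a fit do not measure the spread in that group. Without either untreated library, the wide gap of the untreated pair is also absent from the fit.

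Per length of exon, Nr1d1 was the most abundant of the 9, at a mean of 5.09 log2 CPM per kb over the 11 libraries, followed by Nr1d2 at 4.44, Per1 at 4.37 and Dbp at 4.23. Clock (2.81), Per2 (2.61), Cry2 (2.48) and Cry1 (2.28) formed a lower tier, and Arntl was the lowest at 0.95. The spread between libraries followed another order. From the lowest to the highest library, Per1 differed 14.6-fold, Arntl 8.79-fold, Per2 7.47-fold and Dbp 6.72-fold, while Clock differed 1.43-fold.

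**Figure D1:**
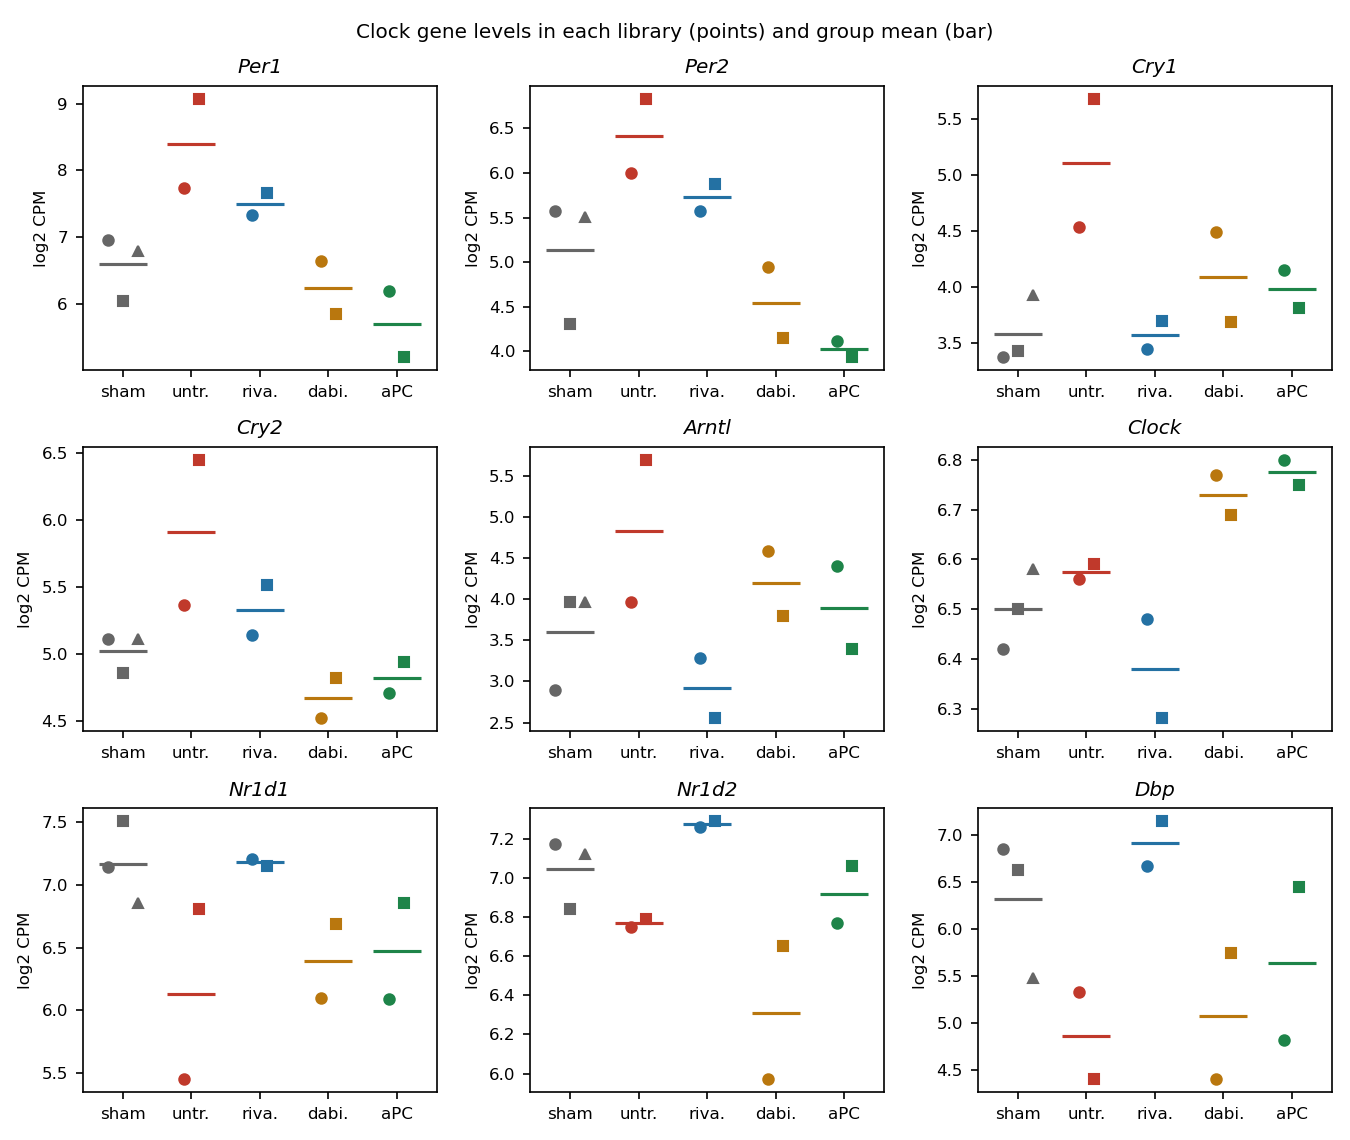
Level of each clock gene in log2 CPM (vertical axes, scaled to each gene) in the 11 libraries, by group (untr., untreated; riva., rivaroxaban; dabi., dabigatran). Each point is a library and each bar a group mean; untreated replicate 19 (red square) was the highest library for Per1, Per2, Cry1, Cry2 and Arntl, and Dbp was lowest there and in Dabi-202.

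Across the 5 groups, 5 of the 9 clock genes were called by limma's moderated F test: Per1 (adjusted p = 0.0122), Per2 (0.0132), Nr1d2 (0.0338), Cry1 (0.0367) and Cry2 (0.0444). Among all genes tested, 30.2% were called. Dbp (0.0793), Clock (0.0891), Nr1d1 (0.125) and Arntl (0.131) were not. With 1 library left out at a time the count ran from 2, without any one of aPC-791 and aPC-792, Riva-313 and Riva-319 and sham replicate 003, to 8 without untreated replicate 17, where 62% of all genes were called. It was 3 without Dabi-202, sham replicate 006 or sham replicate 007. Within each gene, no 2 groups next to each other in the order of their means were told apart by the test.

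The activators come first. Arntl (chr7:113207465-113314126) encodes BMAL1, the rhythmic member of the activating pair. It stood at 2.89, 3.96 and 3.96 log2 CPM in sham replicates 003, 006 and 007, at 3.97 and 5.69 in untreated replicates 17 and 19, and at 3.28 and 2.55 in Riva-313 and Riva-319. It stood at 4.59 and 3.79 in Dabi-202 and Dabi-204 and at 4.40 and 3.39 in aPC-791 and aPC-792. The 2 rivaroxaban libraries lay below every untreated, dabigatran and aPC library, and sham replicate 003 lay among them. No comparison of Arntl was called: untreated against sham gave 1.23 ± 0.53 (adjusted p = 0.144) and rivaroxaban against untreated gave -1.91 ± 0.58 (adjusted p = 0.0681, 95% interval -3.21 to -0.62). With replicate 19 as the only untreated library (n = 1), the latter was -2.77 and the former 2.08.

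Clock (chr5:76209868-76304792), which encodes the partner of BMAL1, was the steadiest gene of the 9. Its group means were 6.50 ± 0.08 (SD, n = 3) log2 CPM in sham, 6.58 ± 0.03 (SD, n = 2) in untreated, 6.38 ± 0.14 (SD, n = 2) in rivaroxaban, 6.73 ± 0.06 (SD, n = 2) in dabigatran and 6.77 ± 0.03 (SD, n = 2) in aPC. All 4 dabigatran and aPC libraries, at 6.69 to 6.80, lay above the other 7, at 6.28 to 6.59. The difference of aPC from rivaroxaban was 0.39 ± 0.12 (adjusted p = 0.123) and that of dabigatran from rivaroxaban 0.35 ± 0.12 (adjusted p = 0.0594). The latter had an adjusted p of 0.0364 with either untreated library left out.

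The repressors showed the clearest group differences. Per1 (chr11:69095217-69109960) encodes the period protein that answers most quickly to outside signals. It stood at 6.96, 6.04 and 6.80 log2 CPM in the 3 sham libraries (in the order above), at 7.73 and 9.07 in untreated and at 7.34 and 7.66 in rivaroxaban hearts. It stood at 6.64 and 5.85 in dabigatran and at 6.19 and 5.20 in aPC hearts. Both untreated libraries lay above all others, both rivaroxaban libraries came next, and the dabigatran and aPC libraries overlapped with sham. Per1 rose in untreated against sham hearts by 1.80 ± 0.43 (adjusted p = 0.0295), a 3.49-fold difference. It was lower than untreated by -2.16 ± 0.47 in dabigatran (adjusted p = 0.0165) and by -2.71 ± 0.47 in aPC hearts (adjusted p = 0.00685), and in rivaroxaban hearts by -0.90 ± 0.47, which was not called (adjusted p = 0.229, 95% interval -1.95 to 0.15). The rise over sham was lost without untreated replicate 19 or any one sham library (adjusted p from 0.0564 to 0.167), the fall in dabigatran hearts without untreated replicate 19 or Dabi-204 (0.0661 to 0.0858), and the fall in aPC hearts without aPC-792 (0.0728). With replicate 19 as the only untreated library (n = 1), the rivaroxaban difference was -1.57.

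Per2 (chr1:91415982-91459324), the second period gene, followed Per1. Its levels were 5.57, 4.31 and 5.51 log2 CPM in sham, 6.00 and 6.83 in untreated, 5.57 and 5.88 in rivaroxaban, 4.94 and 4.15 in dabigatran and 4.12 and 3.93 in aPC hearts. Both aPC libraries lay below every other library, and both untreated libraries above. Per2 fell against untreated hearts, with a log2 fold change of -1.87 ± 0.43 in dabigatran (adjusted p = 0.019) and of -2.39 ± 0.43 in aPC hearts (adjusted p = 0.00721). Its difference of 1.29 ± 0.39 between untreated and sham was not called (adjusted p = 0.0589). It was 1.70 with replicate 19 as the only untreated library (n = 1). The dabigatran call was lost without untreated replicate 19 or Dabi-204 (adjusted p from 0.0759 to 0.0963) and the aPC call without aPC-792 (0.0664).

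Cry1 (chr10:85131700-85185064), the cryptochrome that represses the activating pair most strongly, gave another order of the groups. It stood at 3.37, 3.43 and 3.93 log2 CPM in sham, at 4.54 and 5.68 in untreated and at 3.45 and 3.70 in rivaroxaban hearts. In dabigatran hearts it stood at 4.49 and 3.69 and in aPC hearts at 4.15 and 3.81. The untreated libraries were again the highest, and the rivaroxaban libraries lay within the range of sham. Cry1 rose in untreated against sham hearts by 1.53 ± 0.34 (adjusted p = 0.0224) and fell in rivaroxaban against untreated hearts by 1.53 ± 0.37 (adjusted p = 0.0338). In dabigatran and aPC hearts the differences from untreated were -1.02 ± 0.37 (adjusted p = 0.0945) and -1.13 ± 0.37 (adjusted p = 0.0607). They became -1.59 and -1.69 with replicate 19 as the only untreated library (n = 1). The rise over sham was lost without untreated replicate 19, sham replicate 003 or sham replicate 006 (adjusted p from 0.0738 to 0.11). The fall in rivaroxaban hearts was lost without any one of these or of Riva-313 and Riva-319 (0.0533 to 0.205).

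Cry2 (chr2:92403646-92434043), the other cryptochrome, stood at 5.11, 4.86 and 5.11 log2 CPM in sham, at 5.37 and 6.45 in untreated, at 5.14 and 5.52 in rivaroxaban, at 4.52 and 4.82 in dabigatran and at 4.71 and 4.94 in aPC hearts. Untreated replicate 19 stood far above the rest, and untreated replicate 17 lay between the rivaroxaban libraries. Cry2 fell against untreated hearts, with a log2 fold change of -1.24 ± 0.30 in dabigatran (adjusted p = 0.0235) and of -1.09 ± 0.30 in aPC hearts (adjusted p = 0.034). The first call was lost without untreated replicate 19 or Dabi-202 (adjusted p from 0.0608 to 0.135), and the second without any one aPC or sham library or untreated replicate 19 (0.05 to 0.143). With all libraries, untreated against sham gave 0.88 ± 0.27 (adjusted p = 0.0625) and rivaroxaban against untreated -0.58 ± 0.30 (adjusted p = 0.22). With replicate 19 as the only untreated library (n = 1), these were 1.42 and -1.12.

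The REV-ERB genes, whose receptors repress Arntl, ordered the groups in another way. Nr1d2 (chr14:18204054-18239127) stood at 7.17, 6.84 and 7.12 log2 CPM in sham, at 6.75 and 6.79 in untreated, at 7.26 and 7.29 in rivaroxaban, at 5.97 and 6.65 in dabigatran and at 6.77 and 7.06 in aPC hearts. Both dabigatran libraries lay below the other 9, and both rivaroxaban libraries above them. Nr1d2 fell in dabigatran hearts by 0.74 ± 0.19 against sham (adjusted p = 0.0243) and by 0.97 ± 0.21 against rivaroxaban (adjusted p = 0.00897). Both calls held in 10 of 10 other analysis settings. The first was lost without Dabi-202, sham replicate 003 or sham replicate 007 (adjusted p from 0.0724 to 0.241), and the second without Dabi-202 or either one of the rivaroxaban libraries (0.0553 to 0.0726).

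Nr1d1 (chr11:98767932-98775333) stood at 7.14, 7.51 and 6.86 log2 CPM in sham, at 5.45 and 6.81 in untreated, at 7.21 and 7.15 in rivaroxaban, at 6.10 and 6.69 in dabigatran and at 6.09 and 6.86 in aPC hearts. All 3 sham and both rivaroxaban libraries were at or above 6.86, and untreated replicate 17 was the lowest library. The difference of untreated from sham was -1.04 ± 0.37 (adjusted p = 0.0918), and -1.73 with replicate 17 as the only untreated library (n = 1). Rivaroxaban against untreated gave 1.05 ± 0.41 (adjusted p = 0.123), and 1.74 with untreated replicate 17 alone. Exons of Nr1d1 share 263 bases, 8.55% of its exon length, with Thra, a thyroid hormone receptor gene on the opposite strand. The strand setting of the counting is not given in the sources used here, so some reads may belong to either gene. Thra had group means of 7.20 ± 0.16 (SD, n = 3) in sham, 6.38 ± 0.18 (SD, n = 2) in untreated, 7.30 ± 0.14 (SD, n = 2) in rivaroxaban, 6.55 ± 0.53 (SD, n = 2) in dabigatran and 7.06 ± 0.16 (SD, n = 2) in aPC hearts.

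Dbp (chr7:45705088-45710203) encodes a D-box binding transcription factor that the activating pair drives directly, and it is widely read as the output of the loop. It stood at 6.85, 6.63 and 5.48 log2 CPM in sham, at 5.33 and 4.40 in untreated, at 6.67 and 7.15 in rivaroxaban, at 4.40 and 5.74 in dabigatran and at 4.82 and 6.45 in aPC hearts. Rivaroxaban libraries lay above all untreated, dabigatran and aPC libraries, and within-group gaps reached 1.63 on the log2 scale. No comparison of Dbp was called. Untreated against sham gave -1.45 ± 0.56 (adjusted p = 0.112), rivaroxaban against untreated 2.04 ± 0.62 (adjusted p = 0.0668, 95% interval 0.67 to 3.41) and dabigatran against rivaroxaban -1.84 ± 0.62 (adjusted p = 0.055). With replicate 19 as the only untreated library (n = 1), the first was -1.91 and the second 2.51. The third was called with any one of 6 libraries left out (aPC-791 or aPC-792, untreated 17 or 19, Dabi-204 or sham 007), at -2.51 to -1.84 with an adjusted p from 0.033 to 0.0494. Exons of Dbp share 539 bases, 18% of its exon length, with the sphingosine kinase gene Sphk2 on the opposite strand, whose group means ran only from 4.71 to 5.09 log2 CPM.

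**Figure D2:**
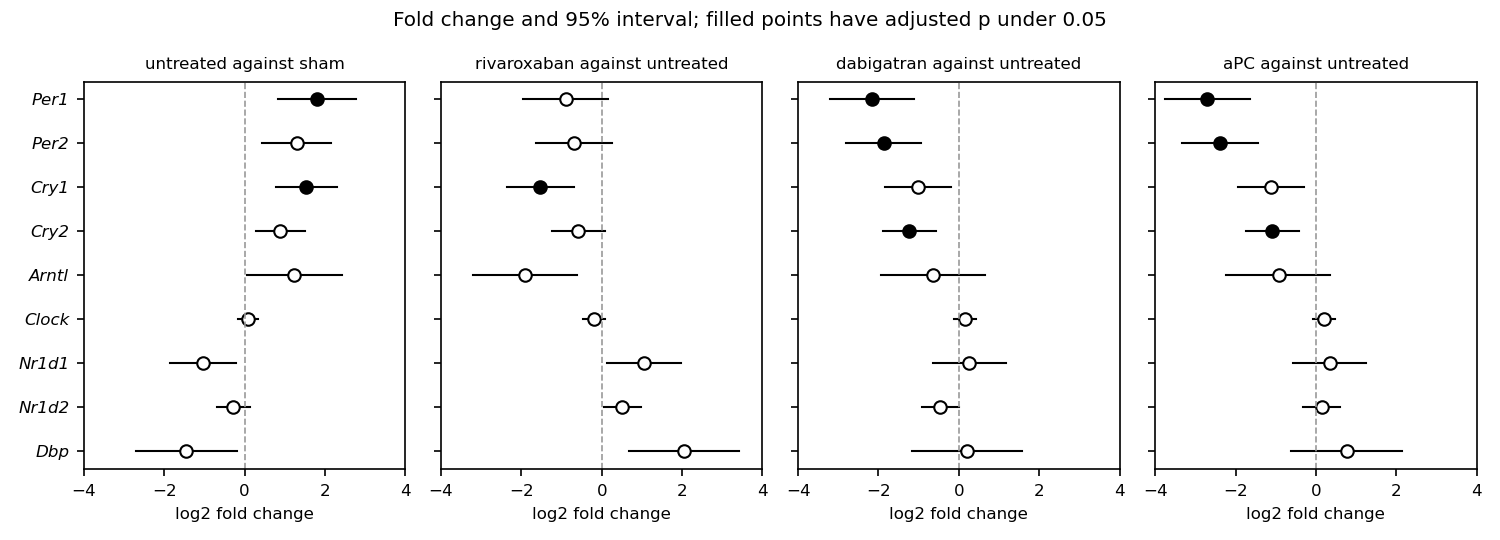
Log2 fold change of each clock gene (horizontal axes) with its 95% interval from the limma fit, in 4 comparisons named above the panels. Filled points have an adjusted p under 0.05: Per1 and Cry1 in untreated against sham, Cry1 in rivaroxaban against untreated, and Per1, Per2 and Cry2 in dabigatran and in aPC against untreated.

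Counted by comparison, untreated against sham called 2 of the 9 clock genes (Per1 and Cry1, both higher). Of all genes tested, 10.6% were called, 5.07% higher and 5.52% lower. The libraries of these groups did not overlap for 8 of the 9 genes (all but Clock), against 43.5% of all genes. The median size of the log2 fold change was 1.23 over the clock genes and 0.33 over all genes tested. Without untreated replicate 19 the count was 1 (Nr1d1, lower), without untreated replicate 17 it was 6 (with 38.4% of all genes called), and without sham replicates 003, 006 and 007 it was 0, 0 and 1.

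The 3 comparisons with untreated hearts share the 2 untreated libraries with each other and with the one above. Rivaroxaban against untreated called 1 of 9 (Cry1, lower; 8.47% of all genes were called and 4.45% called lower). Dabigatran against untreated called 3 of 9 (Per1, Per2 and Cry2, all lower; 13.8% called, 5.08% lower). aPC against untreated called 3 of 9 (Per1, Per2 and Cry2, all lower; 17.6% called, 10.2% lower). All of these calls, and both calls of untreated against sham, were lost when only the groups compared were fitted (0% to 3.48% of all genes called). They were also lost when limma weighted the libraries (0.185% to 1.73% of all genes called). This gave each untreated library a weight of 0.242 against 0.662 to 3.15 for the rest. Without untreated replicate 17 the counts were 5 for rivaroxaban and 5 for aPC, with 37.1% and 38.7% of all genes called. Without untreated replicate 19 the dabigatran count was 0, as was the aPC count without aPC-792 and the rivaroxaban count without Riva-313 or Riva-319 or sham replicate 003 or 006.

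Rivaroxaban against sham called none of the 9 by limma, and 0% of all genes (0 of 13541, with 761 at an unadjusted p under 0.05, none of them a clock gene). The intervals still allow sizeable differences, for Dbp from -0.66 to 1.84 and for Per1 from -0.06 to 1.86. Dabigatran against sham called 1 (Nr1d2, lower; 18.5% of all genes called, 6.82% lower). aPC against sham called 0 (1.17%), with 2 genes, Per2 at -1.11 ± 0.39 and Clock at 0.27 ± 0.11, at an unadjusted p under 0.05. Nr1d1 joined Nr1d2 in dabigatran against sham with either untreated library left out, at -0.78 (adjusted p from 0.0414 to 0.0417), and without Dabi-202, sham replicate 003 or sham replicate 007 the count was 0.

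Between the treated groups, dabigatran against rivaroxaban called 1 of 9 (Nr1d2, lower; 23.3% of all genes called, 9.39% lower). It called 7 without untreated replicate 17, 8 without untreated replicate 19 (35.7% of all genes in each) and 7 when only these 2 groups were fitted. With either untreated library left out Per1 (-1.26, adjusted p from 0.0262 to 0.0265), Per2 (-1.18), Cry2 (-0.66) and Dbp were lower and Arntl (1.28, adjusted p from 0.0486 to 0.0487) and Clock (0.35) higher in dabigatran hearts. Nr1d1 was called lower, at -0.79, without untreated replicate 19. The count was 0 without Dabi-202 or either rivaroxaban replicate, and 2 without any one of aPC-791, aPC-792, Dabi-204, sham 006 and sham 007.

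aPC against rivaroxaban called 0 of 9 (1.54%), although the libraries of these 2 groups did not overlap for any of the 9 genes (63.5% of all genes). Per1 differed by -1.80 ± 0.47 (adjusted p = 0.0894) and Per2 by -1.70 ± 0.43 (0.0828). Both were called, with adjusted p from 0.0212 to 0.0282, with either untreated library left out. aPC against dabigatran called 0 of 9 (21.5%). Nr1d2, at 0.61 ± 0.21 in that comparison (adjusted p = 0.0613), was the gene with an unadjusted p under 0.05, and it was called without untreated 17, untreated 19 or Dabi-204 (adjusted p from 0.0106 to 0.0449).

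The clock genes also differed between libraries of the same group. In each of the 4 groups with 2 libraries, the library with more Arntl had less Dbp. In untreated hearts Arntl was 1.71 higher and Dbp 0.93 lower (-0.93) in replicate 19 than in replicate 17. In rivaroxaban hearts the differences were 0.73 and -0.48 (Riva-313 minus Riva-319), in dabigatran hearts 0.81 and -1.34 (Dabi-202 minus Dabi-204) and in aPC hearts 1.00 and -1.63 (aPC-791 minus aPC-792). Clock was higher in the library with more Arntl in all 4 of these pairs, by 0.04 to 0.20. The other genes were less regular. Per1, Per2 and Cry1 were higher in that library in 3 of the 4 pairs, and Cry2 and Nr1d2 lower in 3. Nr1d1 was higher in 2 and lower in 2. Of the 3 pairs of sham libraries, 2 also had less Dbp with more Arntl. In the third, replicates 006 and 007, Arntl differed by 0.01 while Dbp differed by 1.15.

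Over all 11 libraries, Arntl and Dbp had a Pearson r of -0.89 (adjusted permutation p = 0.00054 over the 36 pairs of clock genes, 100000 permutations) and a Spearman rho of -0.94 (0.0018). The r was -0.88 without the 2 libraries farthest from the median of Arntl and -0.81 after the group means were removed. Cry1 went with Arntl (r = 0.84, permutation p adjusted 0.00834; rho = 0.75, 0.0304; 0.70 without the 2 farthest libraries; 0.78 within groups). It went against Dbp (r = -0.81, permutation p adjusted 0.00504; rho = -0.84, 0.0212; -0.89 and -0.79). Libraries of 1 group share their treatment, and untreated replicate 19 was the highest library for both Arntl and Cry1. The permutations shuffled all 11 libraries regardless of group, so differences between groups count in these p-values. No p was computed for the values within groups.

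Per1 and Per2 were the closest pair of all (r = 0.96 and rho = 0.96, each with an adjusted permutation p of 0.00036, the smallest that the permutations can give; 0.95 without the 2 farthest libraries; 0.86 within groups). Cry2 went with both of them: with Per2 at r = 0.82 (permutation p adjusted 0.00549; rho = 0.84, 0.0212) and with Per1 at r = 0.84 (0.00834; rho = 0.82, 0.0222). These were 0.85 and 0.80 without the 2 farthest libraries and 0.49 and 0.53 within groups. Nr1d2 and Dbp gave r = 0.74 (permutation p adjusted 0.0216; rho = 0.81, 0.0223; 0.61 and 0.54). None of the other pairs passed by both measures. Per1 and Arntl, which the loop places on opposite sides, had r = 0.32 (permutation p adjusted 0.465; rho = 0.08, 0.951), and r was -0.52 without the 2 farthest libraries and 0.54 within groups.

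**Figure D3:**
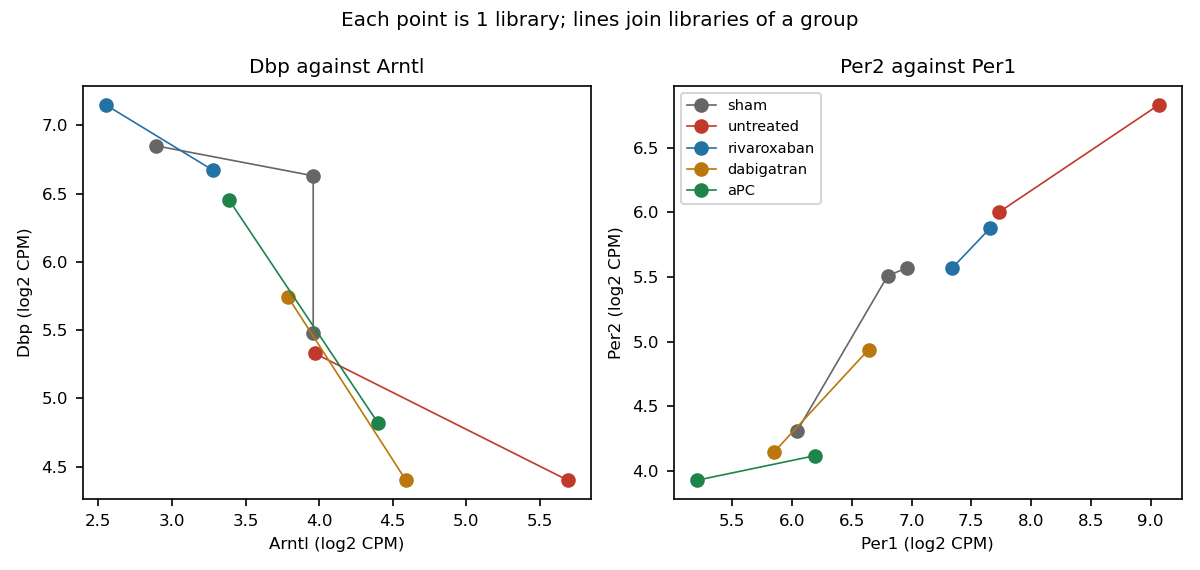
Dbp against Arntl (left) and Per2 against Per1 (right), in log2 CPM on both axes; each point is a library, coloured by group, and lines join the libraries of a group. Dbp is lower where Arntl is higher (r = -0.89), within 4 of 5 groups too, with 1 pair of sham libraries at the same Arntl, and Per2 rises with Per1 (r = 0.96).

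Other genes of the loop were taken as 3 lists, without the 9 above. Of the transcription factors that act with or beside the core loop, 10 of 11 were tested and 5 were called by the F test, beside 30.2% of all genes: Hlf, Bhlhe40, Bhlhe41, Rora and Tef. Hlf, which encodes a relative of DBP that binds the same D-box, had group means of 4.85 ± 0.28 (SD, n = 3) log2 CPM in sham, 4.34 ± 0.13 (SD, n = 2) in untreated, 5.47 ± 0.01 (SD, n = 2) in rivaroxaban, 3.71 ± 0.56 (SD, n = 2) in dabigatran and 4.84 ± 0.22 (SD, n = 2) in aPC hearts. It fell in dabigatran hearts by 1.14 ± 0.24 against sham (adjusted p = 0.0111) and by 1.76 ± 0.26 against rivaroxaban (adjusted p = 0.00167), and rose in rivaroxaban against untreated hearts by 1.13 ± 0.26 (adjusted p = 0.0296). That rise was not called without untreated replicate 19, Riva-313, Riva-319 or sham 007. Like Dbp and Nr1d2, it was highest in rivaroxaban hearts.

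Rora, an activator of Arntl that competes with the REV-ERB receptors, was lower than untreated by -1.34 ± 0.30 in dabigatran (adjusted p = 0.0175) and by -1.15 ± 0.30 in aPC hearts (adjusted p = 0.0282), the second not called without untreated replicate 19 or either aPC library. Bhlhe41, a repressor that competes for E-boxes, rose in dabigatran hearts by 0.88 ± 0.14 against untreated (adjusted p = 0.00373) and by 0.47 ± 0.13 against sham (adjusted p = 0.0282), the second not called without Dabi-202 or any one of the rivaroxaban or sham libraries, nor with median centring. Its relative Bhlhe40 was higher in dabigatran than in rivaroxaban hearts by 0.95 ± 0.18 (adjusted p = 0.00537) and lower in aPC than in dabigatran hearts by -0.89 ± 0.18 (adjusted p = 0.00821). Tef, another D-box binding factor, named after its values were seen, fell in dabigatran against sham hearts by 0.75 ± 0.21 (adjusted p = 0.0312).

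By comparison, 0 of these 10 genes were called higher and 0 lower in untreated against sham hearts (5.07% and 5.52% of all genes), and 1 and 0 in rivaroxaban against untreated (4.02% and 4.45%). In dabigatran against untreated hearts 1 was called higher and 2 lower (8.71% and 5.08%), and in aPC against untreated 0 and 1 (7.44% and 10.2%). In dabigatran hearts 1 was higher and 2 lower than in sham (11.7% and 6.82%), and 2 higher and 3 lower than in rivaroxaban hearts (14% and 9.39%). None of the calls against untreated hearts held with array weights or when only the groups compared were fitted. Their median log2 fold change in dabigatran against untreated hearts was -0.13, beside 0.05 over all genes tested. The 2 falls in that comparison became 0 without untreated replicate 19 or Dabi-202 and 1 without Riva-313, Riva-319 or sham 007. The 2 falls against sham became 0 without Dabi-202 and 1 without Riva-313, Riva-319, sham 003 or sham 007, and the 3 falls against rivaroxaban became 1 without Dabi-202 or Riva-313.

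Of the enzymes that modify clock proteins or mark them for breakdown, 10 of 11 were tested and 2 were called by the F test, Csnk1d and Fbxw11, a smaller share than the 30.2% of all genes. Csnk1d, the casein kinase that phosphorylates PER proteins, rose in untreated against sham hearts by 0.61 ± 0.13 (adjusted p = 0.0195), the 1 gene of this list called there. It fell in aPC against untreated hearts by 0.58 ± 0.14 (adjusted p = 0.0233), as did Prkaa1, a subunit of the energy-sensing kinase AMPK that phosphorylates CRY1, by 1.21 ± 0.37 (adjusted p = 0.0459). Fbxw11, a ligase subunit that acts on PER proteins, was higher in dabigatran than in rivaroxaban hearts by 0.58 ± 0.14 (adjusted p = 0.0132), which was not called without Dabi-202 or either rivaroxaban library. The 1 rise over sham became 0 without untreated replicate 19, sham replicate 003 or sham replicate 006, and 2 without untreated replicate 17. The 2 falls in aPC hearts became 0 without either one of the aPC libraries and 1 without untreated 19, Dabi-202, Dabi-204, sham 003 or sham 007. The rise and both falls were also lost with array weights and in fits of only the groups compared.

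Genes known to follow the clock in heart moved in both directions. Of 11 tested of 12, 7 were called by the F test, beside 30.2% of all genes. Klf15, a clock-controlled factor of cardiac metabolism, had group means of 6.09 ± 0.01 (SD, n = 3) log2 CPM in sham, 6.62 ± 0.22 (SD, n = 2) in untreated, 6.82 ± 0.02 (SD, n = 2) in rivaroxaban, 5.17 ± 0.30 (SD, n = 2) in dabigatran and 6.20 ± 0.07 (SD, n = 2) in aPC hearts. It fell in dabigatran hearts by 0.91 ± 0.15 against sham (adjusted p = 0.0034). Dgat2, an enzyme of triglyceride synthesis, fell there by 1.17 ± 0.18 (adjusted p = 0.00258). Por, the electron donor of P450 enzymes, rose in untreated against sham hearts by 1.40 ± 0.16 (adjusted p = 0.00148), and Ppp1r3c, a glycogen-targeting phosphatase subunit, fell by 1.29 ± 0.24 (adjusted p = 0.0124).

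Of these 11 output genes, 3 were called higher and 1 lower in untreated against sham hearts (5.07% and 5.52% of all genes), and 1 and 2 in rivaroxaban against untreated (4.02% and 4.45%). The counts were 1 and 4 in dabigatran against untreated (8.71% and 5.08%), 1 and 4 in aPC against untreated (7.44% and 10.2%), and 2 and 4 in dabigatran against sham hearts (11.7% and 6.82%). Their median log2 fold change in untreated against sham hearts was 0.82, beside -0.03 over all genes tested. The 3 rises over sham became 5 without untreated replicate 17 and 1 without sham replicate 006 or 007, and the 4 falls in dabigatran against sham hearts became 2 without Dabi-202, Riva-313, Riva-319, sham 003 or sham 007. The 2 rises there became 0 without Dabi-202, sham 003 or sham 006 and 1 without Riva-313, Riva-319 or sham 007. Against untreated hearts, the 2 falls in rivaroxaban became 4 without untreated 17, 1 without untreated 19 or Riva-319 and 0 without Riva-313. The 4 falls in dabigatran became 7 without untreated 17 and 2 without Dabi-204, and the 4 falls in aPC became 2 without aPC-791 and 1 without aPC-792. The 1 rise in each was called 0 times in rivaroxaban without either untreated, aPC or rivaroxaban library or sham 007, 0 times in dabigatran without untreated 19 or either dabigatran library, and 2 times in aPC without untreated 19. With array weights the rises and falls against untreated were 0 and 1, 0 and 2, and 0 and 1 for rivaroxaban, dabigatran and aPC. Of all genes, 0.273%, 0.923% and 1.73% were called there in either direction. In fits of only the groups compared they were 0 and 0, 0 and 2, and 0 and 0 (0%, 1.26% and 0.0222% of all genes called).

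**Figure D4:**
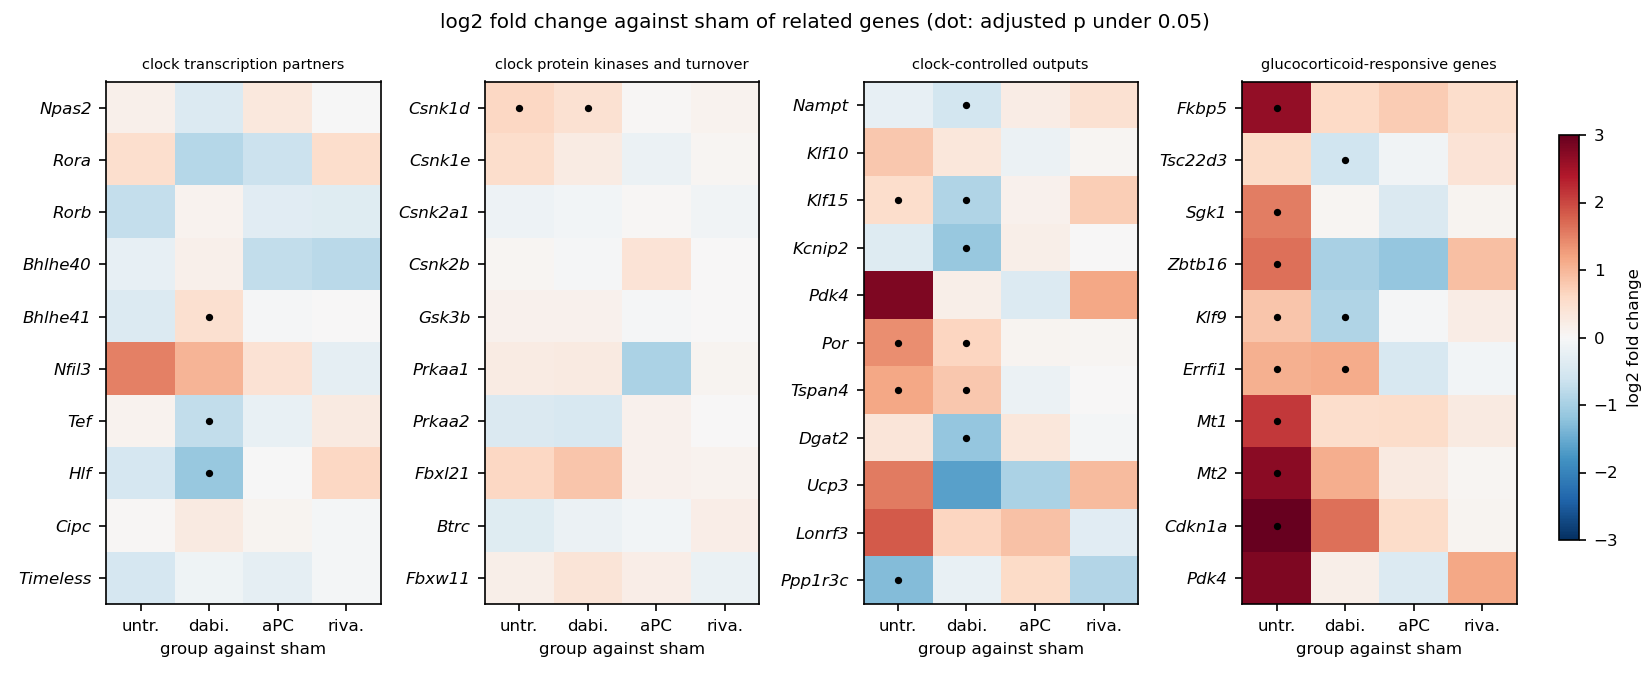
Log2 fold change against sham (colour) of the tested genes of 4 lists in untreated, dabigatran, aPC and rivaroxaban hearts; a dot marks an adjusted p under 0.05. Dots stand in the untreated column for 8 of 10 glucocorticoid-responsive genes and in the dabigatran column for clock partners such as Hlf and Tef, and no dot stands in the rivaroxaban or aPC columns.

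Most glucocorticoid-responsive genes had their highest group mean in untreated hearts, as Per1 did. Errfi1 did not, at 6.60 log2 CPM in dabigatran and 6.57 in untreated hearts. Correlations of these genes with Per1 were not computed. Per1 is itself a glucocorticoid target and was left out of this list. In untreated against sham hearts 8 of 10 were called higher and 0 lower (5.07% and 5.52% of all genes), with a median log2 fold change of 1.88 beside -0.03 over all genes tested. Among them were Klf9 (0.84 ± 0.18), the zinc finger factor gene Zbtb16 (1.65 ± 0.39) and Errfi1, an inhibitor of the EGF receptor (1.07 ± 0.24). Against untreated, 4 were called lower in rivaroxaban, 5 in dabigatran and 7 in aPC hearts (4.45%, 5.08% and 10.2% of all genes). In each, 0 were called higher (4.02%, 8.71% and 7.44% of all genes). The summed level of the 10 genes was 936 to 2441 CPM in sham, 4838 and 11686 in untreated, 1957 and 2578 in rivaroxaban, 1069 and 3578 in dabigatran and 961 and 2345 in aPC libraries. Pdk4, named after its values were seen, had the highest untreated mean of the list, at 11.46 ± 1.59 (SD, n = 2) log2 CPM. It was not called by the F test (adjusted p = 0.122), and it is also on the list of output genes. Untreated replicate 19 had the highest sum, as it had the highest Per1. The 8 rises over sham became 0 without that library or sham replicate 006 and 3 without sham replicate 007. The 4 falls in rivaroxaban hearts became 0 without untreated 19, Riva-313 or Riva-319 and 2 without sham 003 or 007. The 5 falls in dabigatran hearts became 3 without untreated 19 or Dabi-204, and the 7 in aPC hearts became 4 without untreated 19 and 1 without aPC-792. With array weights the 8 rises became 0 and the falls 0, 1 and 0. Of all genes, 0.185%, 0.273%, 0.923% and 1.73% were called there in either direction. In fits of only the groups compared they became 4 and 0, 2 and 1 (3.48%, 0%, 1.26% and 0.0222% of all genes called). No gene of the list was at 0 reads in any library, and the part of glucocorticoid signalling in the Per1 differences was not tested.

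Markers of other cells moved with some groups. Of 10 leukocyte markers, 8 were called higher in dabigatran than in sham, untreated or rivaroxaban hearts (11.7%, 8.71% and 14% of all genes). In untreated against sham hearts 4 were called higher and 2 lower (5.07% and 5.52% of all genes). The summed level of the 10 was 756 and 1115 CPM in dabigatran libraries against 125 to 264 in the other 9, with none at 0 reads. Summed cardiomyocyte markers (6 of 8 in the table) were 41385 and 42616 CPM in dabigatran libraries, below the 52626 to 81112 of the rest. Myh6 weighed most in these sums. Of the 6, 2 were called lower in dabigatran than in sham, 2 than in untreated and 0 than in rivaroxaban hearts (6.82%, 5.08% and 9.39% of all genes). Endothelial markers summed to 821 to 1130 CPM over all libraries. In untreated against sham hearts 1 of these 5 was called higher and 2 lower (5.07% and 5.52% of all genes). Fibroblast markers summed to 704 and 774 CPM in untreated, 685 and 1221 in dabigatran and 1006 to 1521 in sham libraries. In untreated against sham hearts the collagen genes Col1a1 (-1.89 ± 0.39) and Col3a1 (-2.71 ± 0.51) were called lower, while Pdgfra (0.36 ± 0.24) and Dcn (0.14 ± 0.14) of the same list were not called. Smooth muscle and pericyte markers summed to 978 to 1054 CPM in sham, 988 and 1053 in rivaroxaban, 574 and 802 in untreated, 662 and 702 in dabigatran and 802 and 871 in aPC libraries. Rgs5 weighed most in these sums, with means of 9.46 log2 CPM in sham, 8.64 in dabigatran and 9.45 in aPC hearts. In the same order Myh11 had 6.55, 5.82 and 4.87, Tagln 5.60, 5.85 and 4.58, and Cnn1 2.07, 2.08 and 0.68. Acta2, named after its values were seen, had 7.27, 7.31 and 6.34. Atrial markers (3 of 5 in the table) summed to 240 and 281 CPM in dabigatran libraries and to 41.6 to 114 in the rest. The higher sum was that of Nppa, the natriuretic peptide gene that stressed ventricle also expresses (1.90 ± 0.34 in dabigatran against sham, adjusted p = 0.00571), while Myl4 gave 0.23 ± 0.24 (adjusted p = 0.538) and Myl7 did not pass the filter on low values. Erythroid markers (0 of 5 in the table) were not analysed here. The part of these shifts in the fall of Nr1d2, Hlf and Tef in dabigatran hearts was not tested, and in bulk tissue fewer cells of a type and less RNA per cell cannot be told apart.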

How the data were processed

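The deposited table gives log2 CPM, per the file headers, scaled with the trimmed mean of M values, per the file's name. The submitters' processing notes name mm10 and, without versions, edgeR, STAR, Trim Galore, FastQC and bcl2fastq. Which counter, annotation and strand setting were used, and whether genes were filtered, is not given in the sources used here. Per the labels' protocols, polyA RNA came from 500 ng of total RNA and the kit marks the strand. The log2 values of the authors turned back into whole reads (within 0.05 of a read) for 100% of the values below 1000 reads in every library, and higher values were rounded without this check. A gene with 3 reads lies between -2.83 and -2.41.

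Genes with at least 0 log2 CPM in at least 3 of the 11 libraries were tested (13541 of 16658) with two-sided limma-trend (limma 3.58.1, R 4.3.3), with Benjamini-Hochberg adjustment per comparison, and the F test over the 5 groups. The fit was tested on simulated data. Of the identifiers, 16654 matched GENCODE M21 (GRCm38), which gave positions and exons. Correlations used 100000 permutations and adjustment over 36 pairs. Alternatives covered the filter (none, or 2 log2 CPM), a pseudocount of 1, median centring, quantile normalization, array weights, eBayes without trend or robust, voom on recovered reads, fits of only the groups compared, and leaving out each library.

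The members and lists were chosen with earlier results of these data known. Named are all members, up to 4 genes per list of related genes with the smallest F test p, and for Arntl and Dbp the 5 genes most alike and 5 most opposite by Pearson correlation with a mean of at least 1 log2 CPM, without predicted genes. Any other gene is marked in the text as chosen after its values were seen. Some genes of these lists are not reported here.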

Additional observations from a re-analysis of the deposited data

How the results depend on the processing

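No member of the clock list changed direction in a call under any alternative run. Of the fold changes of single genes recomputed under the alternatives, 1774 kept their side of the threshold, 63 passed it newly, 53 dropped below it and 0 reversed. Under array weights the counts against untreated were 0 for rivaroxaban, 0 for dabigatran and 0 for aPC (0.273%, 0.923% and 1.73% of all genes called). Untreated against sham gave 0 (0.185%). The same 4 counts were 0, 0, 0 and 0 when only the groups compared were fitted (0%, 1.26%, 0.0222% and 3.48% of all genes called). eBayes without trend gave 2 for the F test, 1 for untreated against sham and 0 for rivaroxaban against untreated (24.9%, 7.88% and 6.43% of all genes). Array weights gave 1 for aPC against sham (13.2% of all genes) and 4 for dabigatran against rivaroxaban (30.3%). They gave 3 for aPC against rivaroxaban (23.8%) and 1 for aPC against dabigatran (25.6%). Fits of only the groups compared gave 2 for dabigatran against sham, 7 for dabigatran against rivaroxaban and 2 for aPC against rivaroxaban (23.7%, 24.7% and 14.4% of all genes). Median centring gave 2 for dabigatran against rivaroxaban (23.2% of all genes) and 1 for aPC against dabigatran (23.3%), and quantile normalization 4 for the former (26.1%). The cause of these changes was not tested. With 1 library left out at a time, the counts ran from 2 to 8 for the F test, 0 to 6 for untreated against sham, 0 to 5 for rivaroxaban, 0 to 4 for dabigatran and 0 to 5 for aPC against untreated. They ran from 0 to 0 for rivaroxaban, 0 to 2 for dabigatran and 0 to 0 for aPC against sham, 0 to 8 for dabigatran and 0 to 2 for aPC against rivaroxaban, and 0 to 1 for aPC against dabigatran. Where this leaves a group with 1 library, that library is assumed to vary like the other groups. With median centring the median over all genes in aPC against dabigatran was 0.08 in place of -0.05, and Nr1d2 was 0.74 there against 0.61. The 7 correlations that passed kept an unadjusted Pearson permutation p under 0.05 in 14 of 14 settings chosen after seeing the data. Spearman rho and the adjustment over pairs were not repeated there. The r ran from -0.94 to -0.87 for Arntl and Dbp and from 0.95 to 0.98 for Per1 and Per2. It ran from 0.66 to 0.90 for Cry1 and Arntl and from 0.68 to 0.92 for Per1 and Cry2. Depth was no limit on detection, as no clock gene was below 2.55 log2 CPM in any library. No paired analysis was possible because the groups share no replicate number.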

Other observations

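Among 11410 genes with a mean of at least 1 log2 CPM, those whose levels went most closely with Arntl over the 11 libraries were Kank1 (Pearson r = 0.949), Tsta3 (0.936), Nfil3 (0.927), Atg4b (0.923) and Dnajc5 (0.920). Nfil3 encodes a repressor at D-boxes, the sequences that DBP activates. Its group means were 3.65 ± 0.33 (SD, n = 3) log2 CPM in sham, 5.16 ± 1.05 (SD, n = 2) in untreated, 3.37 ± 0.12 (SD, n = 2) in rivaroxaban, 4.66 ± 0.97 (SD, n = 2) in dabigatran and 4.09 ± 0.35 (SD, n = 2) in aPC hearts. It was not called by the F test (adjusted p = 0.0632), and its correlation with Arntl was 0.88 after group means were removed. The genes most opposite to Arntl were Gbp8 (-0.960), Tle6 (-0.943), Eml2 (-0.941), Dync2li1 (-0.938) and Mmp11 (-0.927).

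The genes most like Dbp were Cd200 (0.940), Slc9a2 (0.940), Tap2 (0.939), Mcoln1 (0.937) and Ing4 (0.933). The most opposite were Ccnyl1 (-0.946), Ppp4r2 (-0.936), Dcaf1 (-0.930), Top1 (-0.930) and Gna13 (-0.926). These are the extremes of a ranking over libraries that share groups, and they are given as a description with no test.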
